A study of Mus musculus with 4 samples.

Results

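The opioid system was followed here through 7 genes: the receptors Oprm1 (mu), Oprd1 (delta), Oprk1 (kappa) and Oprl1 (nociceptin), and the precursors Penk (proenkephalin), Pdyn (prodynorphin) and Pnoc (prepronociceptin). A probe set was taken for a gene when the platform annotation gave it exactly 1 symbol, and the brightest probe set was to stand for each gene. All 7 genes had 1 such probe set, so 7 of the 35556 probe sets and 7 of the 19938 genes tested are described. RNA came from the whole brain of fetuses of C57BL/6J, the common inbred strain of laboratory mice, taken on embryonic day 16. The ethanol group came from females injected with ethanol at 2.5 g per kg in saline on gestational days 14 and 16, and the control group from females injected with an equal volume of saline. Each group had 2 Affymetrix whole-transcript arrays, and each array carried pooled RNA of 3 mice, 12 in all. The labels give the sex of the fetuses as unknown and do not say which litters made up a pool. The p-values therefore describe the spread from pool to pool, which need not equal that between litters. The question put to the opioid genes is whether acute ethanol given to the mother altered their transcript levels in the fetal brain.

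Opioid peptides are cut from larger precursors in secretory granules. Enkephalins act mainly on delta and mu receptors, dynorphins on kappa receptors and nociceptin on its own receptor. All of these receptors couple to inhibitory G proteins, which lower cyclic AMP, open inwardly rectifying potassium channels and restrain voltage-gated calcium channels. In the adult brain Penk and Pdyn are known as peptides of striatal projection neurons, the system is tied to reward and pain, and the mu receptor is the target of naltrexone, a drug used against alcohol dependence.

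Promoter windows are shown for opioid genes that were all lowest in the same pool, control 1, so that their upstream sequences can be set side by side. RefSeq windows of assembly GRCm38.p6, from 250 bases before to 50 bases after a transcript start, were matched for Oprm1, Oprd1, Oprl1 and Pdyn, that is for 4 of the 7 genes. Oprk1, Penk and Pnoc were not matched. Where a gene had several windows (3 for Oprm1, 3 for Oprl1, 2 for Pdyn), the one farthest upstream is printed, on the gene's strand, with every CpG in capitals. The Oprm1 window lies at chr10:6758343-6758642 (+), the Oprd1 window at chr4:132144437-132144736 (-), the Oprl1 window at chr2:181714766-181715065 (+) and the Pdyn window at chr2:129699889-129700188 (-).
Oprm1: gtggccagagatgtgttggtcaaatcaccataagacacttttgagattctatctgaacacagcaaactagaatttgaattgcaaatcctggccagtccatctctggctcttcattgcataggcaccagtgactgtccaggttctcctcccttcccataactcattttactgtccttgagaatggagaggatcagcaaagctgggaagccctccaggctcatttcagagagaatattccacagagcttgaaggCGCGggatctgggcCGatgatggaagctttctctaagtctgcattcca
Oprd1: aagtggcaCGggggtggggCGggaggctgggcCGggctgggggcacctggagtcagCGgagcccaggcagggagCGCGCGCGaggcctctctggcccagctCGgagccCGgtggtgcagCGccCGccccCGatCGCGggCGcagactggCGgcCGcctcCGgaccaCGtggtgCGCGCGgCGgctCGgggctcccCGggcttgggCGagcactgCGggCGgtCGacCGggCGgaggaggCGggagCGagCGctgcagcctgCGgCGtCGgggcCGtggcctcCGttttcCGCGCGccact
Oprl1: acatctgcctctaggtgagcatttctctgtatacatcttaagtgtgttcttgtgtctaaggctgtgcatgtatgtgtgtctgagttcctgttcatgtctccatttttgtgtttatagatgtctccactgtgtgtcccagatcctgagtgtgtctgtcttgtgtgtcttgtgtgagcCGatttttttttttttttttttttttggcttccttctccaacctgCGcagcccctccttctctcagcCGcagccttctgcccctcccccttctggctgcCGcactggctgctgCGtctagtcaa
Pdyn: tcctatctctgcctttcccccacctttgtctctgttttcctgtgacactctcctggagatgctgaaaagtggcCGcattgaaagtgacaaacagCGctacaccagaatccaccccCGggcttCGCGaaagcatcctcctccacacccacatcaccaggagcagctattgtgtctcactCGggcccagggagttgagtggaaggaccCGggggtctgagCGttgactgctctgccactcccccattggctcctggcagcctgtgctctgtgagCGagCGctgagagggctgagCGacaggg

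These windows differ widely in base composition. The Oprd1 window is 79.3% G or C with 43 CpGs, more CpGs than 97.4% of the 32817 distinct windows in the RefSeq table. The Pdyn window is 59.0% G or C with 11 CpGs, the Oprl1 window 47.7% with 5, and the Oprm1 window 47.3% with 3, against medians of 52.7% and 7 CpGs over all windows. The GC box GGGCGG, searched on both strands, occurs 4 times in the Oprd1 window and 0 times in the other 3, and 35.6% of all windows hold it. The half-site of the cyclic AMP response element, TGACG or CGTCA, occurs in 0 of the 4 printed windows and in 20.8% of all windows. These are descriptions of letters in the windows shown, and they say nothing of binding.

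None of the 7 opioid genes passed the test between ethanol and control pools, and their differences were at most 0.14 on the log2 scale. Limma, which was fitted over all 19938 genes, called 0 of the 7 at a Benjamini-Hochberg adjusted p under 0.05, where 0% of all genes were called. At an unadjusted p under 0.05 there were 0 of the 7, against 2.94% of all genes (587). The smallest unadjusted p among the 7 was 0.0938, for Pdyn (adjusted p = 0.980), and in the ordinary test without shared variance it was 0.0667, again for Pdyn. The median log2 difference, ethanol minus control, was 0.060 over the 7 genes and 0.0088 over all genes, and 5 of the 7 lay above 0, where 54.2% of all genes did. Without control 1 the median over the 7 came to -0.014. The ethanol and control arrays did not overlap in 1 of the 7, against 31.4% of all genes.

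**Figure D1:**
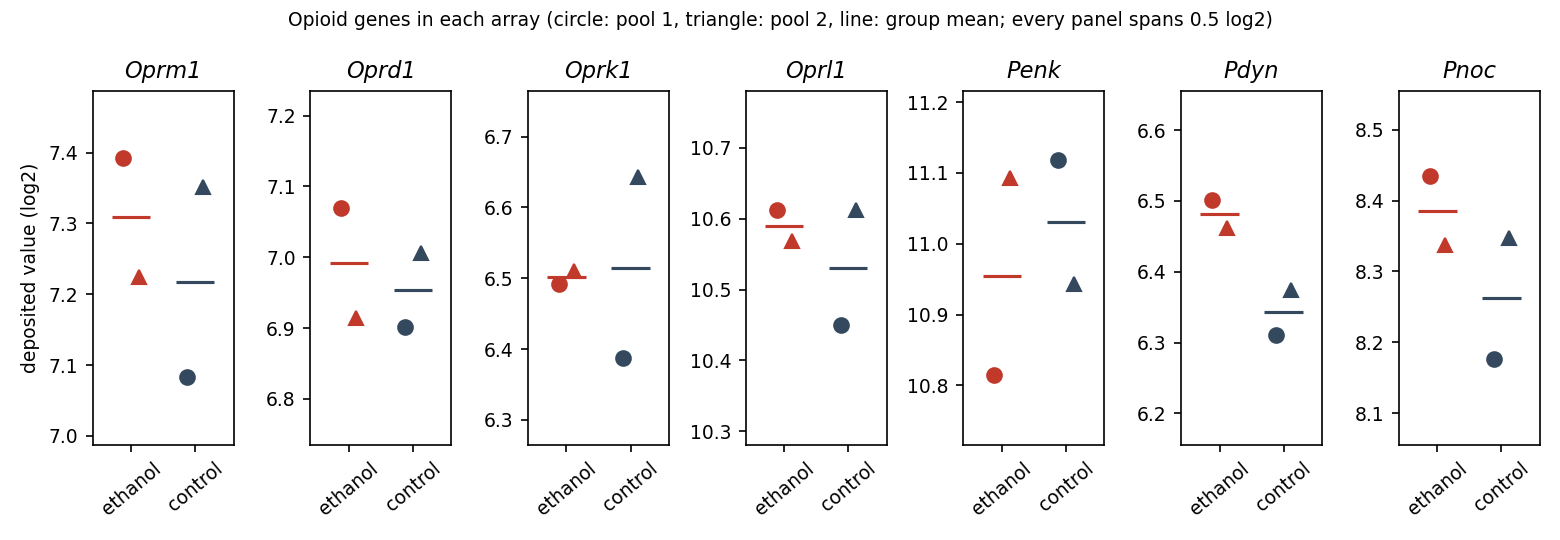
Deposited log2 value (y axis) of each opioid gene on the 2 ethanol arrays and the 2 control arrays (x axis); circles are pool 1, triangles pool 2, and lines group means. Every panel spans 0.5 on the log2 scale; the groups stand apart only for Pdyn, and control 1 is the lowest array in every panel except that of Penk.

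The receptors are taken first. Oprm1 (probe set 10367546), the mu receptor for enkephalins, endorphin and morphine, had log2 values of 7.39 and 7.22 in the ethanol pools, against 7.08 and 7.35 in the control pools. The 2 groups overlapped, since control 2 lay between the ethanol pools and the lowest value was that of control 1. The log2 difference was 0.092 ± 0.114 (SE, 2 arrays per group), with a 95% confidence interval from -0.19 to 0.38. The control pools were 0.27 apart, which is more than the difference between the groups. Without control 1 the difference was -0.042.

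Oprd1 (probe set 10516852), the delta receptor, stood at 7.07 and 6.91 in the ethanol pools and at 6.90 and 7.01 in the control pools. Ethanol 2 and control 1 were nearly level at the bottom, and the groups overlapped. Ethanol minus control came to 0.038 ± 0.085 (SE), with an interval from -0.17 to 0.25. It came to -0.039 without ethanol 1 and -0.014 without control 1.

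Oprk1 (probe set 10344653), the kappa receptor for dynorphins, stood at 6.49 and 6.51 in the ethanol pools and at 6.39 and 6.64 in the control pools. The ethanol pools lay close together and inside the range of the control pools. On the log2 scale the difference was -0.014 ± 0.100 (SE), with an interval from -0.26 to 0.24, and without control 2 it came to 0.11. These are dim values: they exceeded 23.6% and 26.3% of all probe sets in the ethanol pools, and 23.6% and 28.7% in the control pools. The files give no detection call, so it is not known whether such a probe set stood above background.

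Oprl1 (probe set 10479685), the nociceptin receptor, had 10.61 and 10.57 in the ethanol pools, against 10.45 and 10.61 in the control pools. Control 2 matched ethanol 1 to 2 decimals, and control 1 lay below the other arrays. The log2 difference was 0.060 ± 0.082 (SE), with an interval from -0.14 to 0.26, and it was -0.021 without control 1. Its values exceeded 85.5% and 85.0% of all probe sets in the ethanol pools and 83.1% and 85.4% in the control pools. Brightness depends on the probes as well as on the RNA, so levels of different genes were not set against each other.

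Among the precursors, Pdyn (probe set 10487613), which yields the dynorphins and neoendorphins, was the only one of the 7 genes in which the groups did not overlap. It stood at 6.50 and 6.46 in the ethanol pools, against 6.31 and 6.37 in the control pools. Groups standing apart with ethanol higher were seen in 17.4% of all genes, so 1 of 7 is near that share. The log2 difference was 0.14 ± 0.07 (SE), with an interval from -0.032 to 0.31, a fold of 1.10 (0.978 to 1.24). It ranged from 0.11 (without control 1) to 0.17 (without control 2) when an array was left out. After repeated quantile normalization it was 0.094. Pdyn was dim as well, above 23.8% and 25.1% of all probe sets in the ethanol pools and 21.7% and 22.7% in the control pools. In this dim range the arrays differed: the lower quartile of all probe sets was 6.55 in ethanol 1 and 6.46 in ethanol 2. It was 6.45 and 6.47 in the control pools. The part of this in the Pdyn difference was not tested.

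Pnoc (probe set 10420853), the nociceptin precursor, stood at 8.43 and 8.34 in the ethanol pools and at 8.18 and 8.35 in the control pools. Control 2 lay just above ethanol 2, and control 1 was lowest. Its log2 difference was 0.12 ± 0.09 (SE), with an interval from -0.093 to 0.34. Without control 1 it was 0.038.

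Penk (probe set 10511363), the enkephalin precursor, stood at 10.81 and 11.09 in the ethanol pools and at 11.12 and 10.94 in the control pools. The gap of 0.28 between the ethanol pools was larger than the difference of the group means. The log2 difference was -0.077 ± 0.117 (SE), with an interval from -0.37 to 0.21. It was 0.063 without ethanol 1 and 0.011 without control 1. Its values exceeded 87.5% and 90.1% of all probe sets in the ethanol pools and 90.2% and 88.8% in the control pools.

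**Figure D2:**
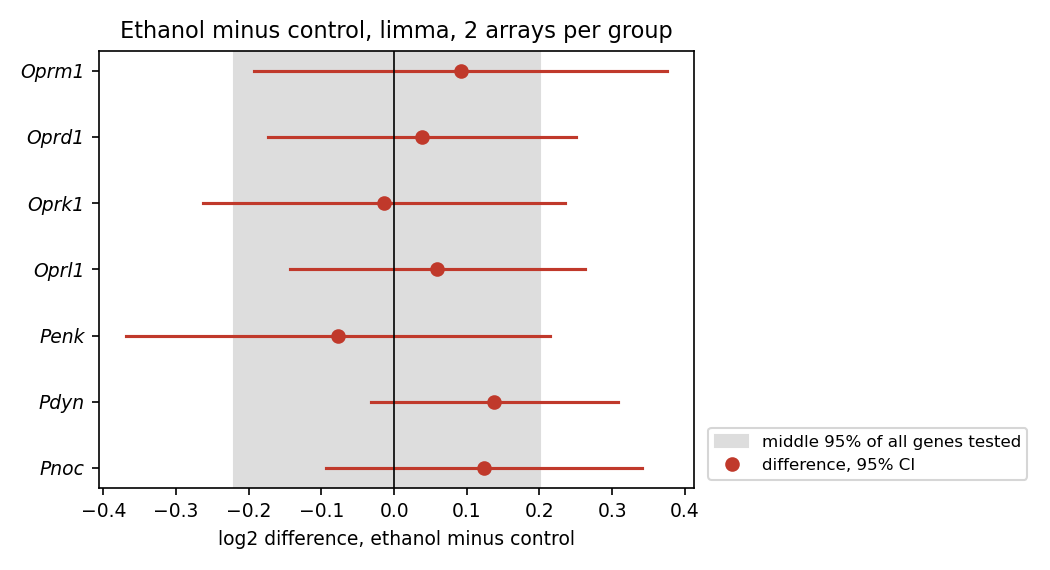
Log2 difference, ethanol minus control (x axis), of each opioid gene (y axis), with its 95% confidence interval from limma (line). The grey band is the middle 95% of the differences of all genes tested, from -0.22 to 0.20; every interval includes 0 and every point lies inside the band.

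The intervals give the folds compatible with the 4 arrays at the 95% level. As folds of ethanol over control they ran from 0.875 to 1.30 for Oprm1, from 0.887 to 1.19 for Oprd1, from 0.834 to 1.18 for Oprk1 and from 0.905 to 1.2 for Oprl1. For the precursors they ran from 0.775 to 1.16 for Penk and from 0.938 to 1.27 for Pnoc, beside that of Pdyn given above. The number of arrays limits this precision. In whole-brain RNA, fewer cells of a type and less RNA per cell cannot be told apart.

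In all of the 7 genes but Pdyn, the gap between the 2 control pools was larger than the difference between the group means. Control 1 was the lowest array for 6 of the 7, all but Penk, whereas 32.5% of all genes were lowest there. Ethanol 1 was the highest array for 5 of the 7, all but Oprk1 and Penk, and for 40.2% of all genes. Oprm1, Oprd1, Oprl1 and Pnoc shared one order from high to low, namely ethanol 1, control 2, ethanol 2, control 1, which 11.0% of all genes had. The median deviation of the 7 from their own mean was 0.089 and 0.0080 in the first and second ethanol pools, against -0.11 and 0.033 in the first and second control pools. Over all genes that median was between -0.011 and 0.019 on each array. Oprm1 had the widest range of the 7, at 0.31, and 84.6% of all genes had a narrower one.

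Likeness to Oprm1 was measured as the root mean square difference between the 4 deviations of a gene from its own mean and those of Oprm1. The nearest of the 19937 other genes were Pfn4, a profilin, at 0.0020, Ubtfl1 at 0.0066, and Nxph1, a secreted neurexin ligand, at 0.0075 (log2). Among the opioid genes Pnoc was nearest, at 0.045 and rank 487, followed by Oprl1 at 0.060 and Oprd1 at 0.064. Penk was farthest at 0.24, with rank 18696. With 4 arrays a close match in shape is easily had, and it is given as a description.

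Penk ran the other way, with control 1 highest, then ethanol 2, control 2 and ethanol 1, an order found in 7.74% of all genes. Several marker lists also had higher median levels in control 1 and ethanol 2 than in the other pools. They were those of cartilage and bone, of skeletal muscle, of meninges, pericytes and fibroblasts, and of cranial sensory ganglia. The median log2 level of 8 measured cartilage and bone genes was 7.497 and 8.44 in the ethanol pools and 8.53 and 7.65 in the control pools. Only 1 of the 8 (Col2a1) was highest in control 1, and the median deviation of the list from the genes' own means was 0.29 in ethanol 2 and 0.15 in control 1. For 14 skeletal muscle genes it was 7.40 and 8.39 in the ethanol pools and 9.88 and 7.28 in the control pools, and all 14 were highest in control 1. All 14 genes of meninges, pericytes and fibroblasts were likewise highest in control 1, with medians of 8.78 and 9.07 in the ethanol pools and 9.48 and 8.77 in the control pools. The 7 measured genes of cranial sensory ganglia had medians of 7.34 and 7.50 in the ethanol pools and 7.72 and 7.39 in the control pools. Of these 7, 3 were highest in control 1. The part of these lists in the Penk values was not tested. Mme (neprilysin), a peptidase that cuts enkephalins, had the same order of arrays as Penk, at 7.64 and 8.43 in the ethanol pools and 8.74 and 7.87 in the control pools.

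Neuron markers give the setting for the other 6 genes. The 10 general neuron markers had median log2 levels of 12.6 and 12.5 in the ethanol pools and 12.4 and 12.5 in the control pools. The labelled tissue thus showed its markers. In control 1, 6 of the 10 were lowest and 2 highest, against 32.5% and 26.8% of all genes. Tubb3, with the largest difference of the list at -0.38 ± 0.11 (log2, SE), was highest there. Of 14 measured striatal projection neuron markers, 8 were lowest and 1 highest in control 1, with a median log2 difference of 0.020. The dopamine receptors Drd1 and Drd2 stood at 0.024 ± 0.087 and 0.023 ± 0.107 (log2 difference, SE). Xist, the noncoding RNA of X inactivation, had log2 values of 12.0 and 12.8 in the ethanol pools and of 6.10 and 12.8 in the control pools. The Y-linked gene Eif2s3y stood at 11.17 and 10.03 in the ethanol pools and at 11.58 and 9.98 in the control pools. It set control 1 and ethanol 1 above the other pools. Xist in control 1 lay below that array's lower quartile of 6.45, so the pools differed in their mix of sexes. Control 1 was thus the highest pool in muscle and meningeal markers and the lowest in Xist and, by margins down to about 0.01 for Oprd1, in 6 opioid genes. The part of these markers in the opioid values was not tested.

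**Figure D3:**
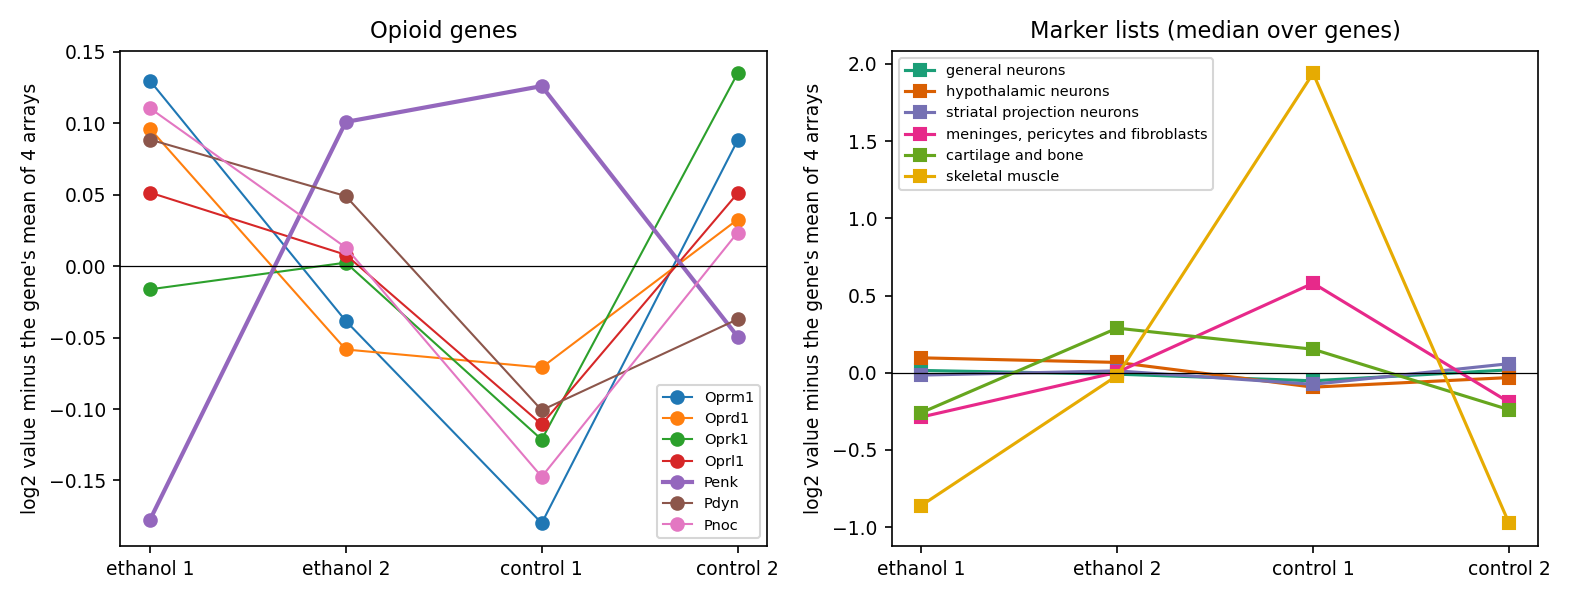
Left, log2 deviation of each opioid gene from its own mean over the 4 arrays (y axis) in each pool (x axis); right, the median of the same deviation over marker lists, on a wider scale. Control 1 is lowest for 6 of the 7 opioid genes, while Penk is highest there, where the muscle list peaks at 1.94.

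Genes of hypothalamic neurons, among which Pdyn is also expressed, lay on the same side as Pdyn and Pnoc. All 15 measured markers had a log2 difference above 0, with a median of 0.11, where 54.2% of all genes lay above 0. The groups were apart in 9 of them, against 31.4% of all genes, and 9 of the 15 were lowest in control 1, against 32.5% of all genes. Limma called 0 of the 15 at an adjusted p under 0.05, and 4 had an unadjusted p under 0.05, against 2.94% of all genes. Sst (somatostatin) stood at 12.1 and 12.0 in the ethanol pools, against 11.5 and 11.8 in the control pools, a log2 difference of 0.42 ± 0.11 (SE). The other 3 were Npy (neuropeptide Y) at 0.32 ± 0.12, the transcription factor Sim1 at 0.22 ± 0.07 and Hcrt (hypocretin) at 0.19 ± 0.07. Hcrt was dim, at 6.89 and 6.84 in the ethanol pools and 6.68 and 6.68 in the control pools. Sst and Npy are also made by cortical interneurons. Between 11 and 14 of the 15 stayed above 0 when an array was left out, and 12 of 15 did after repeated quantile normalization. Only 6 of the 15 were brighter than the median gene, and all 6 lay above 0. Whether these shifts and those of Pdyn and Pnoc share a source was not tested.

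The rest of the opioid pathway was read from 7 lists with 55 genes in all, and 52 of them were measured. Limma called 0 of the 52 at an adjusted p under 0.05. At an unadjusted p under 0.05 there were 3, or 5.77%, against 2.94% of all genes. All 3 also had a fold of at least 1.2, which 1.02% of all genes met together with that p. The 3 genes were Chga, Pcsk1n and Adcy6. In the ordinary test without shared variance none of these 3 had an unadjusted p under 0.05 (0.101 for Chga, 0.182 for Pcsk1n and 0.145 for Adcy6), and 2 other pathway genes did. The log2 difference was above 0 in 18 of the 52 and below 0 in 34, with a median of -0.026. Over all genes 54.2% lay above 0. The groups were apart in 17, or 32.7%, against 31.4% of all genes. Ethanol was higher in 6 of them and lower in 11, against 17.4% and 14% of all genes.

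Among 9 measured genes of precursor processing and granules, the largest differences lay in opposite directions. Chga, chromogranin A, a granule core protein, stood at 10.31 and 10.62 in the ethanol pools, against 10.91 and 11.13 in the control pools. Both ethanol pools were below both control pools, and the log2 difference was -0.55 ± 0.13 (SE; unadjusted p = 0.00629, adjusted p = 0.980). It stayed between -0.71 and -0.40 when an array was left out. Pcsk1n, which encodes proSAAS, an inhibitor of the prohormone convertase Pcsk1, stood at 11.91 and 11.80 in the ethanol pools, against 11.32 and 11.67 in the control pools. Its log2 difference was 0.36 ± 0.13 (SE; unadjusted p = 0.0296, adjusted p = 0.980), and without control 1 it was 0.19, with an unadjusted p of 0.121. The convertase Pcsk1 itself stood at 0.011 ± 0.083, and the granins Chgb and Scg2 at 0.12 ± 0.09 and -0.13 ± 0.09. Chgb came to 0.030 without control 1 and Scg2 to -0.040 without ethanol 1. The list had a median of -0.0077.

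Among 8 genes of opioid peptide breakdown, 3 lay above 0 and 5 below, with a median of -0.092, where 54.2% of all genes lay above 0. The aminopeptidase Anpep, also on the list of meningeal and pericyte markers, stood at 7.98 and 8.10 in the ethanol pools, against 8.94 and 8.14 in the control pools. The difference was -0.50 ± 0.25 (log2, SE) and rested on control 1, without which it was -0.10. Mme stood at -0.27 ± 0.35, and at 0.16 without control 1 and 0.12 without ethanol 1. The puromycin-sensitive aminopeptidase Npepps stood at 0.048 ± 0.066. Ace, which can also cut enkephalins, stood at 0.020 ± 0.154, and at -0.17 without control 1 and -0.11 without ethanol 1.

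Downstream of the receptors, 5 inhibitory G protein alpha subunits had log2 differences from -0.054 (Gnaz) to 0.027 (Gnai3), with a median of 0.0020. Gnao1, the abundant alpha subunit of neurons, stood at 13.21 and 13.18 in the ethanol pools and at 13.16 and 13.21 in the control pools. Of 11 effectors, 2 lay above 0 and 9 below, with a median of -0.020, where 54.2% of all genes lay above 0. Adcy6, an adenylyl cyclase, stood at 9.27 and 9.47 in the ethanol pools, against 9.75 and 9.59 in the control pools. Its log2 difference was -0.30 ± 0.10 (SE; unadjusted p = 0.0260, adjusted p = 0.980), and the unadjusted p was 0.121 without ethanol 1 and 0.111 without control 1. The cyclases Adcy3 and Adcy8 stood at -0.18 ± 0.08 and 0.082 ± 0.093, and Adcy8 at -0.016 without control 1. The potassium channel subunits Kcnj3, Kcnj6 and Kcnj9 stood between -0.034 and -0.010, and Kcnj5 at 0.019 ± 0.069. Kcnj5 and Kcnj9 were dim, below the lower quartile of every array, so it is not known whether they stood above background.

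Of 12 measured regulators of receptor signalling, 3 lay above 0 and 9 below, with a median of -0.052, where 54.2% of all genes lay above 0. The receptor kinases Grk6 and Grk3 stood at -0.16 ± 0.07 and -0.11 ± 0.10, and Grk3 at 0.013 without control 2. Arrb2 (beta-arrestin), which takes activated receptors out of signalling, stood at -0.099 ± 0.065. The G protein deactivators Rgs20 and Rgs19 stood at 0.11 ± 0.10 and 0.061 ± 0.067, Rgs20 at 0.014 without control 1 and Rgs19 at 0.032 without ethanol 1.

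Other genes tied to opioid peptides lay on both sides of 0. Pomc, the precursor of beta-endorphin, stood at 6.65 and 6.54 in the ethanol pools and at 6.6 and 6.56 in the control pools, a log2 difference of 0.020 ± 0.074 (SE) that turned to -0.015 after repeated quantile normalization and to -0.034 without ethanol 1. Ogfr, a receptor through which Met-enkephalin slows cell growth, stood at -0.14 ± 0.08 (-0.080 without ethanol 1), and the related Ogfrl1 at 0.13 ± 0.07. Ackr3, a chemokine receptor that in human cells also takes up opioid peptides, stood at -0.032 ± 0.067. Kcnip3, known as DREAM, a repressor of the prodynorphin gene, stood at 11.00 and 10.83 in the ethanol pools, against 10.69 and 10.81 in the control pools, and was higher by 0.17 ± 0.09 (log2, SE; unadjusted p = 0.114), with 0.084 without ethanol 1. Rest, a repressor of neuronal genes, stood at -0.087 ± 0.145, and at 0.13 without control 1, while Creb1 stood at 0.0034 ± 0.0798.

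**Figure D4:**
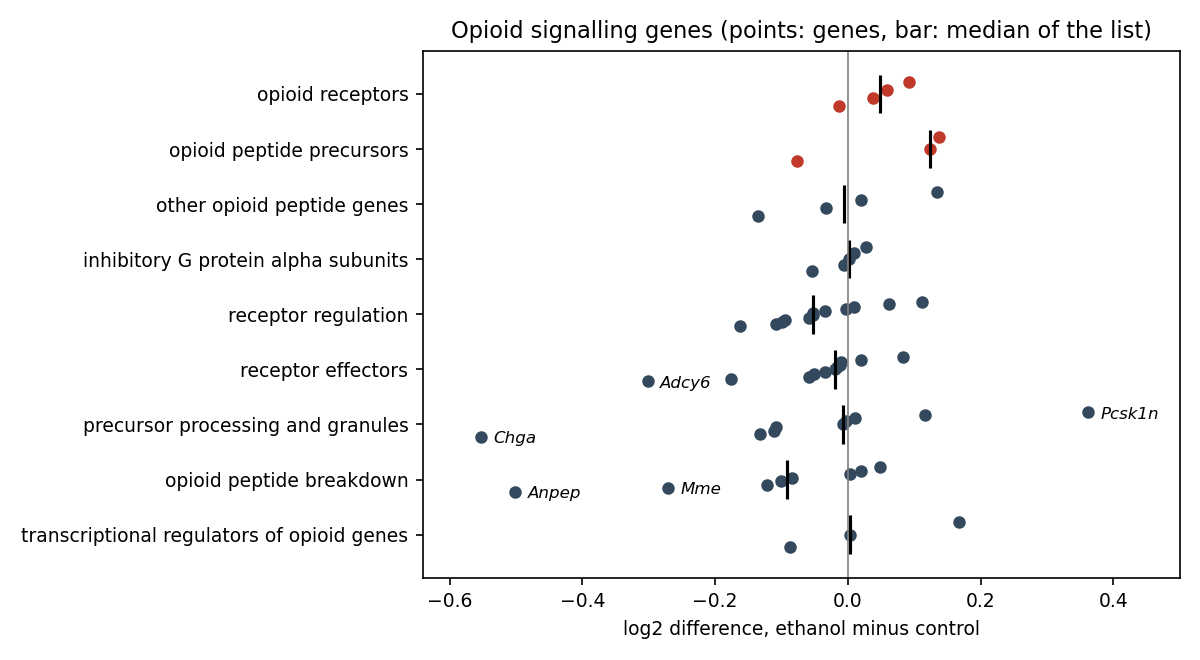
Log2 difference, ethanol minus control (x axis), of each measured gene (points) in 9 lists of the opioid system (y axis), with the list's median (bar); red marks the 7 opioid genes. Chga, Anpep and Adcy6 lie farthest below 0 and Pcsk1n farthest above, while the opioid genes lie between -0.077 and 0.14.

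Genes beside the opioid genes on the chromosomes were read as well. Of the 14 nearest protein-coding neighbours in the RefSeq gene table, 11 were measured, with log2 differences from -0.088 to 0.21. The groups were apart in 3 of the 11, near the 31.4% of all genes, and 0 had an unadjusted p under 0.05 in limma. The highest was Npbwr1, next to Oprk1, a receptor for neuropeptides B and W, at 7.36 and 7.24 in the ethanol pools, against 6.99 and 7.19 in the control pools (0.21 ± 0.10 on the log2 scale, SE). It was named after its values were seen.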

How the data were processed

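The deposited table holds log2 values, 1 per probe set and array. Per the submitters' processing notes Partek 6.6 was used; how the authors corrected background, scaled the arrays and summarised probes is not stated in these sources. Base 2 was inferred from the spread of the values, and it sets the size of every difference. Trizol-extracted RNA was turned into biotin-labelled cDNA, per the labels' protocols. Median values were between 8.01 and 8.04 on the 4 arrays, while the lower quartile was 6.55 in ethanol 1 and between 6.45 and 6.47 on the others. The table has 0 columns of other samples.

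Of 35556 probe sets, 21789 have 1 gene symbol, 1621 several and 12146 none. Older symbols were replaced where the Entrez identifier was found in RefSeq GRCm38.p6 (21698 matched, 91 kept). Groups were compared with limma 3.58.1 (lmFit, eBayes, R 4.3.3), two-sided, with Benjamini-Hochberg adjustment over 19938 genes, and 5.65 degrees of freedom after moderation. The fit was tested on simulated data. All 7 genes, the 2 highest and 2 lowest differences of each list of 5 or more, and all genes of shorter lists were named, with a few others for context. Alternatives were other units, scalings, a filter on dim genes, variance models, a replicate block and leaving out each array. The genes and lists were chosen with earlier results of these data known.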

Additional observations from a re-analysis of the deposited data

How the results depend on the processing

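Each of the 7 opioid genes kept its direction in every setting that kept all arrays and measured it (66 of 66 values). Only repeated quantile normalization and centring on each array's median changed these differences. The other settings left them as they were, so in those the direction could not turn. The smallest adjusted p of an opioid gene in limma or the ordinary test with all arrays was 0.684. It was that of Pdyn in limma with the unplanned crossed pairing described below. In the planned settings with all arrays the smallest was 0.902, for Pnoc in limma among brighter genes. In the brighter genes, Oprm1, Oprd1, Oprk1 and Pdyn were not measured and 0 opioid genes had groups apart. With an array left out, the log2 difference ranged from -0.042 to 0.23 for Oprm1, -0.039 to 0.12 for Oprd1, -0.14 to 0.11 for Oprk1, -0.021 to 0.14 for Oprl1, -0.22 to 0.063 for Penk, 0.11 to 0.17 for Pdyn and 0.038 to 0.21 for Pnoc. The opioid genes with groups apart then numbered 1 to 7, where 11642 to 14832 of all genes were apart, since 1 array against 2 separates more easily, and the median of the 7 ranged from -0.014 to 0.14. Over all genes, those past the adjusted threshold were 0 in the settings with all arrays and 0 to 4 with an array left out. The 203 genes with an unadjusted p under 0.05 and a fold of at least 1.2 numbered 993 with every probe set tested, 134 among brighter genes, 37 by the ordinary test, 3 with the fold raised to 1.5, and 142 to 1265 with an array left out. Groups stood apart in 6252 genes, in 11200 features with every probe set tested and in 3466 brighter genes, where other numbers of features enter. Among pathway genes, repeated quantile normalization turned Pomc to -0.015, Gnai1 to 0.022 and Kcnj5 to -0.026. With an array left out these values ranged across 0: Pomc from -0.034 to 0.075, Gnao1 from -0.018 to 0.037, Gnaz from -0.20 to 0.087, Gnai1 from -0.078 to 0.067, Grk3 from -0.23 to 0.013, Adcy8 from -0.016 to 0.18, Kcnj5 from -0.0090 to 0.048, Ace from -0.17 to 0.21, Mme from -0.70 to 0.16, Creb1 from -0.063 to 0.070 and Rest from -0.30 to 0.13. Calls of pathway genes with an array left out had no share of all genes to stand beside, and they are not given. Where the construction of a setting does not show it, the cause was not tested. Arrays left out leave a group of 1, assumed to vary like the other.

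The labels do not say that replicate numbers mark pairs, and deviations of same-numbered arrays had a correlation of -0.484 across genes. With a replicate block 0 genes passed the adjusted threshold, 196 passed the rule of p and fold, and no opioid gene changed its call. With crossed pairing, added after seeing the data together with the pathway and hypothalamic results under each setting, these counts were 0 and 373. Without a block, 203 genes passed the rule of p and fold. With crossed pairing 6 pathway genes had an unadjusted p under 0.05. The share of all genes at that p was not counted there, so the 6 are not read as a result about the pathway.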
